A study of Bos taurus with 15 samples.

Results

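The 500 kb between 28500000 and 29000000 of bovine chromosome 27 (assembly UMD3.1.1) was examined in the liver of 9 newborn bull calves and the mammary gland of 6 heifers. The window was chosen by measured values: it holds positions 28621580 and 28867246, which were less methylated in the liver of calves that had been heat stressed before birth. Its members were all positions that any library listed between those bounds, 12430 of the 27136487 positions in the series (0.0458%). The liver contrast between treatments therefore selected the window, and liver values by group are given below as a description. Positions called between the liver groups are counted beside the same count over all tested positions, and nothing is read from them. Of the 12430 positions, 569 were listed in all 15 animals, 727 in all 9 calves and 3826 in all 6 heifers, and 2743 were listed in a single animal.

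All animals were Holstein. The dams of the in utero heat stressed groups (IUHT-B, 4 bull calves, and IUHT-H, 3 heifers) had shade alone, and the dams of the in utero cooled groups (IUCL-B, 5 bull calves, and IUCL-H, 3 heifers) had shade, fans and water soakers, during the last 6 to 7 weeks of gestation. Liver was taken from the bull calves soon after birth, and mammary biopsies came from the heifers on day 21 of their first lactation, so tissue, sex and age cannot be told apart. Each library came from 1 animal. The bull calves were born in different years, which the labels do not tie to a calf. Expression markers of liver or mammary cells could not be checked in methylation calls. The annotation of this assembly was not used here, so whether a position lies in a gene, exon or promoter is not given.

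In mammals, DNA methylation is found mainly at cytosines followed by guanine (CpG), and most CpG outside promoters and CpG islands are methylated in adult tissues. Reduced representation bisulfite sequencing (RRBS) cuts genomic DNA with restriction enzymes, keeps short fragments, and converts unmethylated cytosine so that it is read as thymine. The methylation level of a position is the percentage of its reads that kept the cytosine. Tandem repeats, in which a short unit is copied many times in a row, carry the same restriction sites and CpG at a fixed spacing, and a short read from one copy can be hard to place among the others.

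The window was covered far more deeply than its surroundings in every animal. It ranked 1 of 5337 bins of 500 kb on chromosomes 1 to 29 and X by the number of methylation calls (reads summed over positions) in all 15 libraries. It held 26.7 times the calls of the median bin in IUHT-B calf 2, the lowest value, and 111 times in IUHT-B calf 5, the highest. Heifers ranged from 66.1 to 92.4 times. Mean calls per kilobase were 19.6 ± 9.31 times (SD, n = 9) those of the 500 kb on either side in liver and 19.8 ± 1.38 times (SD, n = 6) in the mammary gland. The window took 0.515 ± 0.214% of all calls in liver (SD, n = 9; 0.333 to 0.892%) and 0.814 ± 0.0826% in the mammary gland (SD, n = 6; 0.689 to 0.894%), which was 21.9% and 29.3% of the calls on chromosome 27. Window calls per animal numbered 63199 to 146356 in liver and 121813 to 169211 in the mammary gland.

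**Figure D1:**
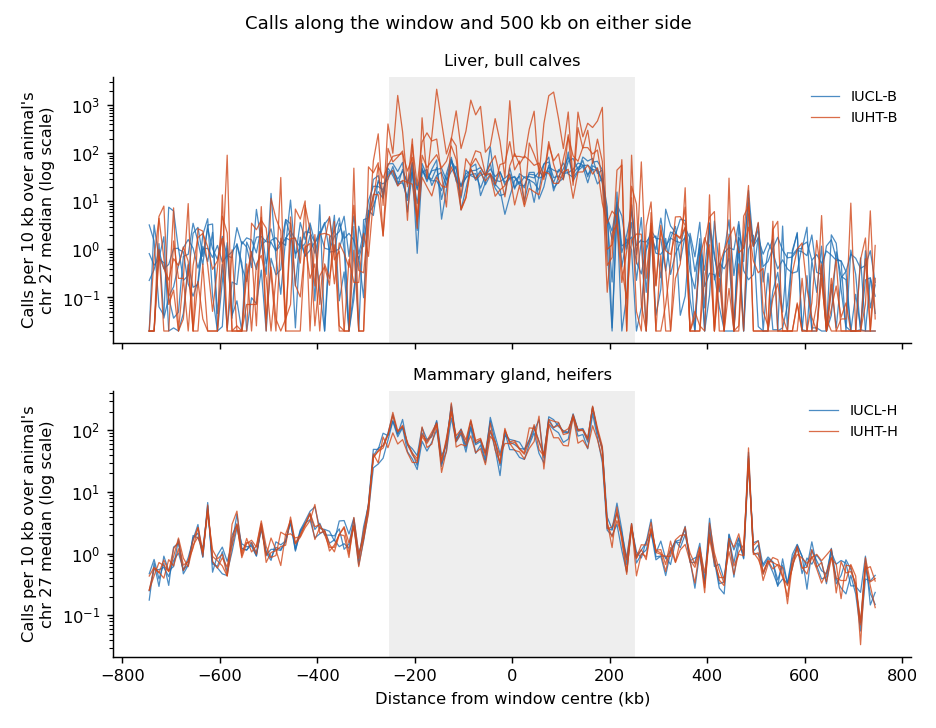
Calls per 10 kb bin, divided by the same animal's median 10 kb bin of chromosome 27 (log scale, with values under 0.02 drawn at 0.02), against distance from the window centre in kb. Each line is 1 animal, and the grey band is the window. The longest unbroken run of deep bins ends inside the window in all 15 animals. It begins before the window in the 6 heifers and IUCL-B calves 4 and 5. In the other calves a thin bin inside the window breaks it.

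The deep stretch did not share the bounds of the window. The deep run was the longest unbroken row of 10 kb bins with at least 5 times the animal's median bin of chromosome 27. It ended at 28939999 in 14 of the 15 animals and at 28949999 in IUCL-B calf 3. It began at 28450000 or 28460000 in the 6 heifers and in IUCL-B calves 4 and 5. In the other 7 calves it began between 28540000 and 28610000. Those later starts do not mark where deep coverage began, since 1 thin bin breaks a run. The bin from 28500000 also passed the cut-off in those 7 calves. In IUCL-B calf 1 it held 4979 calls (median 81), and the bin from 28600000, with 346, broke the run. Calves 4 and 5 of IUCL-B had the widest liver libraries, with 3289592 and 5958861 listed positions against 307023 to 1052206 in the other calves. The last 60 kb of the window therefore had little coverage, and few liver values below come from there.

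Reads per listed position were higher in the window than on the rest of chromosome 27. In liver the means were 41.2 ± 14.7 reads in the window and 23.8 ± 12.9 on the rest (SD, n = 9), a geometric mean ratio of 1.91, and the window was deeper in 9 of 9 calves. This is given with no test, since a liver position could be compared, and so chosen, only with more than 10 reads in every calf. In the mammary gland the means were 20.4 ± 1.83 and 2.01 ± 0.0984 reads (SD, n = 6), a ratio of 10.1. The mammary p of 0.03125 is the smallest that 6 heifers allow in the two-sided exact permutation test over signs, and it was 0.0781 after Benjamini-Hochberg adjustment over the 10 tests made. Among positions with more than 10 reads the mammary log2 ratio was 0.23 in place of 3.34. The share of calls in the window was 0.662 ± 0.260% in IUHT-B (SD, n = 4) and 0.397 ± 0.0384% in IUCL-B (SD, n = 5). These liver shares overlapped, since IUHT-B calf 2 had the lowest share of the 9 calves (0.333%). The difference was 0.375 points without that calf, and it is given with no test since the same groups chose the window. Window calls themselves averaged 102962 in IUHT-B and 107945 in IUCL-B, while reads per listed position were 49.8 ± 13.7 and 34.2 ± 12.6 in the window and 30.8 ± 12.8 and 18.2 ± 11.01 on the rest of the chromosome. The part of this difference between libraries in the liver levels was not tested. In heifers the shares were 0.824 ± 0.117% in IUHT-H and 0.803 ± 0.0540% in IUCL-H (SD, n = 3 each; exact permutation p = 0.8, adjusted 0.889).

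Listed positions in the window repeated at a fixed distance. The commonest distance from 2 to 60 bases was 23, followed by 22, in both tissues, among positions with at least 5 reads in some animal. In liver 613 pairs of window positions lay 23 bases apart, 5.57 times the median count over those distances, and in the mammary gland 748 pairs did, 5.71 times the median. On the rest of chromosome 27 the commonest distance was 6, and pairs at 23 bases were 1.30 and 1.39 times the median in liver and mammary gland. Next in the liver window came 13 and 10 bases, with 7.25 and 7.02 pairs per 100 positions against 2.31 and 2.76 on the rest of the chromosome, and 45 and 46 bases, with 6.71 and 6.54 against 0.999 and 1.05. In the mammary window 13 bases had 8.07 pairs per 100 positions, and 45 and 46 bases had 7.59 and 7.65. Of all positions listed in a calf, 26.8 ± 3.47% in the window had another listed position exactly 23 bases away, against 3.35 ± 0.676% on the rest of the chromosome (SD, n = 9). The mammary percentages were 27.5 ± 0.835 and 5.74 ± 0.817 (SD, n = 6). The lowest window value (20.6%, IUCL-B calf 4) was above the highest value on the rest of the chromosome (6.83%, IUHT-H heifer 3).

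**Figure D2:**
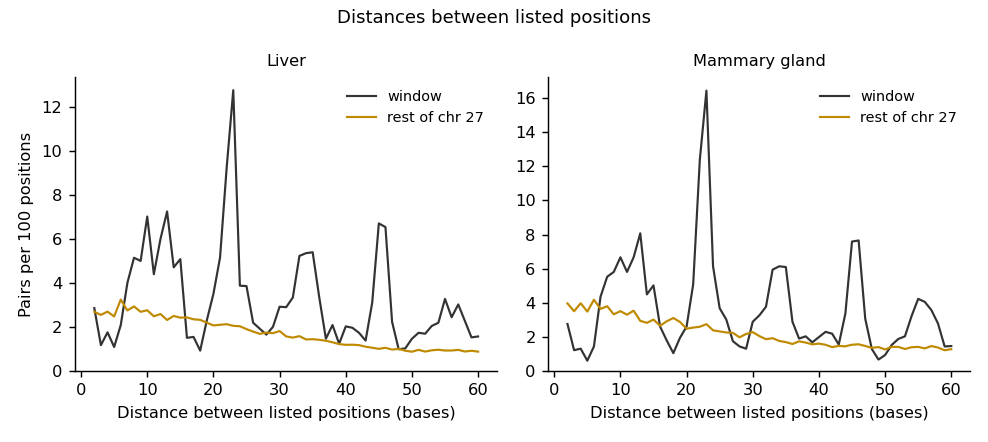
Number of pairs of listed positions at each distance from 2 to 60 bases, per 100 positions, in the window (black) and on the rest of chromosome 27 (yellow). Window pairs peak at 23 bases in both tissues, with 12.8 pairs per 100 positions in liver and 16.5 in the mammary gland, with lower peaks at 13 bases and at 45 and 46 bases.

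Positions 23 bases apart also had like methylation levels. Over 158 such pairs of window positions with more than 10 reads in every heifer, Pearson's r between the mean mammary levels was 0.827, against 0.469 over 86 pairs at 22 bases, 0.255 over 644 pairs at 2 to 21 bases and 0.303 over 393 pairs at 24 to 44 bases. Outside the window the order was different, with 0.480 over 1647 pairs at 23 bases and 0.535 over 13365 pairs at 2 to 21 bases. In liver the 23 window pairs at that distance had r = 0.769, and the 57 pairs at 2 to 21 bases had r = 0.0283. These correlations run over pairs that share positions and libraries, and are given as a description. Within the window, then, the level of a position resembled that of the position one 23-base step on more than that of its nearer neighbours.

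Whether the window is a tandem repeat was not tested, since no genome sequence was used here. Deep coverage and the same spacing were also found in the other 500 kb bins with the most tested liver positions. On chromosome 8, 74500000 to 74999999, 26.3 ± 3.06% of listed liver positions (SD, n = 9) and 28.8 ± 0.733% of mammary positions (SD, n = 6) had one 23 bases away, and reads per position were 41.0 ± 14.6 and 22.5 ± 2.87. On chromosome 7, 105500000 to 105999999, the percentages were 25.2 ± 3.92 and 23.5 ± 0.60. Levels there were 71.2 ± 4.03% in liver and 69.8 ± 1.54% in mammary gland on chromosome 8, and 74.1 ± 3.87% and 66.6 ± 1.51% on chromosome 7. The window on chromosome 27 had 70.0 ± 4.33% and 67.6 ± 2.07% measured the same way.

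At the first position, 28621580, liver levels in the 5 IUCL-B calves were 13.9% (36 reads), 75.9% (29 reads), 99.6% (268 reads), 8.51% (47 reads) and 71.3% (101 reads) in calves 1 to 5. In IUHT-B calves 2 to 5 they were 0% (32 reads), 8.33% (24 reads), 0.293% (341 reads) and 6.25% (16 reads). A count of 0 of 32 reads allows a level of up to 10.7% (upper limit of the 95% Wilson interval). The groups did not overlap, but IUCL-B calf 4 at 8.51% stood next to IUHT-B calf 3 at 8.33%, and IUCL-B ranged from nearly unmethylated to nearly fully methylated. The group means were 53.8 ± 40.4% (SD, n = 5) and 3.72 ± 4.21% (SD, n = 4). With so few reads, the 95% Wilson intervals of single calves were up to 29.9 points wide, and intervals cover counting error only.

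At the second position, 28867246, IUCL-B calves 1 to 5 had 39.0%, 77.0%, 52.9%, 78.4% and 46.4% on 102 to 364 reads. IUHT-B calves 2 to 5 had 2.65% (113 reads), 0.0834% (1199 reads), 38.0% (648 reads) and 0.368% (543 reads). IUHT-B calf 4 stood apart from the other 3 calves of its group, next to IUCL-B calf 1. The group means were 58.7 ± 18.0% in IUCL-B and 10.3 ± 18.5% in IUHT-B (SD, n = 5 and 4). No library listed the cytosine on the opposite strand at either position, so neither level could be compared between strands.

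Some neighbouring positions were close enough for 1 read to cover both. Position 28621602, 22 bases after the first position and read as often in each of the 9 calves, had 94.4%, 82.8%, 63.1%, 87.2% and 44.6% in IUCL-B and 100%, 20.8%, 99.7% and 93.8% in IUHT-B. Its group means differed by 4.16 points (IUHT-B minus IUCL-B), against −50.1 points at the first position, and the groups overlapped. Pooled over the calls of a group the differences were 29.8 and −76.0 points, where IUHT-B calf 4 (341 reads) and IUCL-B calf 3 (268 reads) weigh most. Around the second position, 28867232, 28867240, 28867255, 28867265 and 28867278 had more than 10 reads in all 9 calves. Their group means differed by −7.54, −0.387, 1.33, −2.98 and 5.09 points (IUHT-B minus IUCL-B), against −48.5 points at 28867246 itself, and the groups overlapped at all 5. Pooled over calls these neighbours differed by 14.2, 2.78, 11.5, 6.28 and 20.6 points, against −45.8 points at 28867246. Position 28867240, 6 bases before, was at 70.4 to 100% in all calves, and 28867255, 9 bases after, was at 50.8 to 99.6%. The group means of 28867240 and 28867255 were 81.0% or more in both groups. The chosen positions were picked for their difference and the neighbours were not, so a smaller difference at the neighbours is built into the choice.

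**Figure D3:**
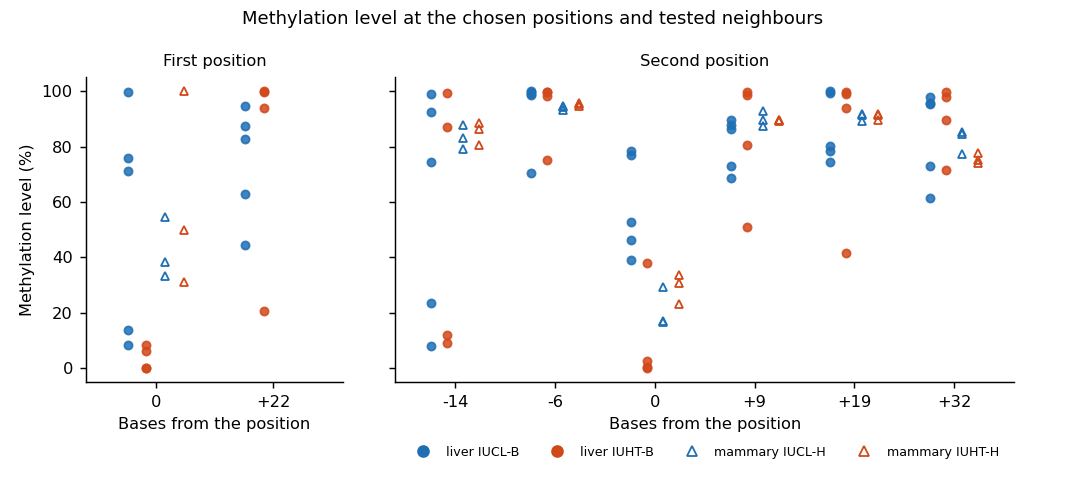
Methylation level (%) at the chosen positions (0) and at the neighbours within 1 kb that had more than 10 reads in all 9 calves, by distance in bases. Filled circles are calves and open triangles are heifers, blue for in utero cooled and orange for in utero heat stressed, and mammary points are drawn where every heifer had more than 10 reads, and at both chosen positions. In liver the groups separate at the chosen positions and overlap at all 6 neighbours.

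Within 1 kb in liver, what the other positions showed depended on how they were weighted. Without the chosen position itself, the pooled level within 1 kb of the first position was 67.1 ± 15.5% in IUCL-B and 77.9 ± 30.4% in IUHT-B (SD, n = 5 and 4), on 33 to 733 calls per calf. Around the second it was 82.4 ± 7.23% and 81.5 ± 21.6%, on 625 to 3773 calls per calf. With every other position weighted alike, the means were 79.2 ± 11.7% in IUCL-B and 82.4 ± 19.3% in IUHT-B around the first position, and 74.4 ± 9.42% and 63.8 ± 6.00% around the second (SD, n = 5 and 4). At the second position these means ranged from 60.2 to 84.98% in IUCL-B and from 54.9 to 67.7% in IUHT-B, over 7 to 27 positions per calf, so the groups overlapped. With the chosen position included the levels were 65.3 ± 16.03% and 57.3 ± 24.4% at the first and 79.6 ± 8.31% and 67.3 ± 16.3% at the second. By pooled level each IUHT-B spread was wider than the IUCL-B spread, while around the second position it was narrower with positions weighted alike. In IUHT-B calf 2 the level around the second position was 43.0%, against 73.9 to 77.3% in the other 3 calves of the group.

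Mammary levels at the same positions were as follows. At 28867246 the IUCL-H heifers had 17.1%, 29.4% and 16.7% and the IUHT-H heifers had 23.1%, 30.6% and 33.8%, on 65 to 222 reads. The groups overlapped, with means of 21.0 ± 7.23% and 29.2 ± 5.53% (SD, n = 3 each), and the position was no differentially methylated cytosine (q = 0.238). The position was low in every heifer while 28867240 was at 93.3 to 95.8% and 28867255 at 87.3 to 92.8% in the same heifers. At 28621580 the heifers had 54.5%, 38.5% and 33.3% in IUCL-H and 50.0%, 31.3% and 100% in IUHT-H on 3 to 18 reads. That position was not tested between groups, since not every heifer had more than 10 reads there. The pooled mammary level within 1 kb was 63.4 ± 2.64% in IUCL-H and 63.1 ± 6.10% in IUHT-H at the first position (exact permutation p = 1), and 74.5 ± 1.69% and 73.7 ± 1.25% at the second (exact permutation p = 0.5, adjusted 0.625). With 3 heifers a group the smallest p of this test is 0.1, so no difference could have passed 0.05. The direction at the first position turned with the distance, to 10.3 points higher in IUHT-H within 500 bases (exact permutation p = 0.4). There the IUCL-H heifers had 52.2%, 48.1% and 52.9% and the IUHT-H heifers 66.7%, 44.7% and 72.7%, so the groups overlapped. Around the second position the size depended on the weighting of positions. By the mean over positions the IUCL-H heifers had 72.7%, 75.5% and 76.2% and the IUHT-H heifers 51.2%, 69.6% and 66.8%, a difference of −12.3 points without overlap (exact permutation p = 0.1, the smallest possible). That mean gives equal weight to thinly read positions: of the 28 to 34 other positions listed there in a heifer, 15 to 23 had at most 10 reads. Over the other positions with more than 10 reads the means were 73.0 to 82.2% in IUCL-H and 68.7 to 80.1% in IUHT-H, and the groups overlapped.

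Across the window outside 1 kb of the chosen positions, the pooled liver level was 66.7%, 72.8%, 70.4%, 75.5% and 77.0% in IUCL-B calves 1 to 5 and 66.9%, 64.5%, 68.9% and 66.6% in IUHT-B calves 2 to 5. The means were 72.5 ± 4.10% and 66.7 ± 1.80% (SD, n = 5 and 4), a difference of −5.76 points, and IUCL-B calf 1 lay inside the IUHT-B range. The rest of chromosome 27 differed by −0.105 points between the same groups. A lower level in IUHT-B was not particular to the window. In the bin of chromosome 7 from 105500000, IUCL-B calves had 72.4 to 79.2% and IUHT-B calves 69.1 to 73.2%. In the bin of chromosome 8 from 74500000 they had 68.4 to 76.4% and 63.3 to 73.3%. Counting each position alike (the mean of the percentage column) gave 72.4 ± 2.62% and 69.9 ± 0.946%, a difference of −2.49 points. Without the wide libraries of IUCL-B calves 4 and 5 the pooled difference was −3.24 points. Each whole-window level rested on 63199 or more calls (IUHT-B calf 3 at 64.8%, 95% Wilson interval 64.5 to 65.1%, and IUCL-B calf 5 at 77.0%, 76.8 to 77.3%, for counting error only).

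**Figure D4:**
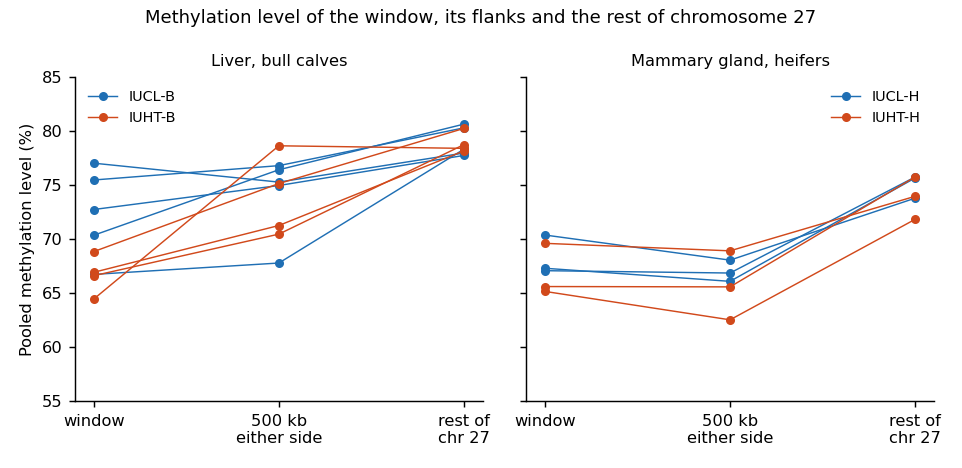
Pooled methylation level (%) of the window outside 1 kb of the chosen positions, of the 500 kb on either side and of the rest of chromosome 27. Each line is 1 animal (the axis starts at 55%). The window lies below the rest of the chromosome in all 15 animals, and in liver the IUCL-B calves spread from 66.7 to 77.0% in the window.

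By 10 kb bin, 42 of the 50 bins had at least 100 calls in every calf. In 31 of them the mean liver level was lower in IUHT-B (46.5% of all bins were lower) and in 11 it was higher, with a median difference of −5.39 points (1.23 points over the 2492 such bins of the genome). The groups overlapped in all 42 bins, where 5.02% of all bins were without overlap, and nothing is read from this since the liver contrast chose the window. The largest liver differences were in the bins from 28680000 (−22.6 points; IUCL-B 69.3 to 83.4%, IUHT-B 26.95 to 76.3%), 28630000 (−22.6 points; 48.2 to 89.4% and 38.3 to 60.9%) and 28750000 (−20.8 points; 61.5 to 82.1% and 36.2 to 63.8%). None of these bins holds a chosen position: the bins from 28620000 and 28860000, which do, differed by −3.79 and −4.52 points. The median SD between calves within a bin was 12.8 points in IUHT-B and 8.99 points in IUCL-B.

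In the mammary gland 45 bins had at least 100 calls in every heifer. The level was lower in IUHT-H in 39 (57.0% of all bins were lower) and higher in 6, with a median difference of −1.70 points (−0.507 over the 27474 bins of the genome). Groups did not overlap in 7 of the 45 (15.6%), against 8.99% of all bins, with 6 lower and 1 higher in IUHT-H. Bins within one window share their libraries, so their signs are not independent of each other. Most window bins were read far above the minimum of 100 calls, so their shares are not a like comparison with all bins. The rest of chromosome 27 was also lower in IUHT-H (73.9 ± 1.96%) than in IUCL-H (75.1 ± 1.11%, SD, n = 3 each). The window minus the rest was −7.06 ± 2.92 points in IUHT-H and −6.82 ± 2.95 in IUCL-H, so a lower level was not particular to the window. The pooled window level was 67.1%, 67.4% and 70.4% in IUCL-H and 65.3%, 65.7% and 69.6% in IUHT-H, a difference of −1.45 points that was within the spread (68.3 ± 1.83% and 66.9 ± 2.41%, SD, n = 3 each; exact permutation p = 0.5, adjusted 0.625). The bin from 28630000, which was among the 3 with the largest liver difference, was the one that was higher in IUHT-H without overlap (60.4 ± 2.50% against 55.5 ± 2.43%). The others of the 3 largest were the bin from 28960000 (−5.44 points, groups overlapping, as few as 120 calls) and the bin from 28820000 (−4.12 points; IUCL-H 71.3 to 77.6%, IUHT-H 69.9 to 70.2%).

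**Figure D5:**
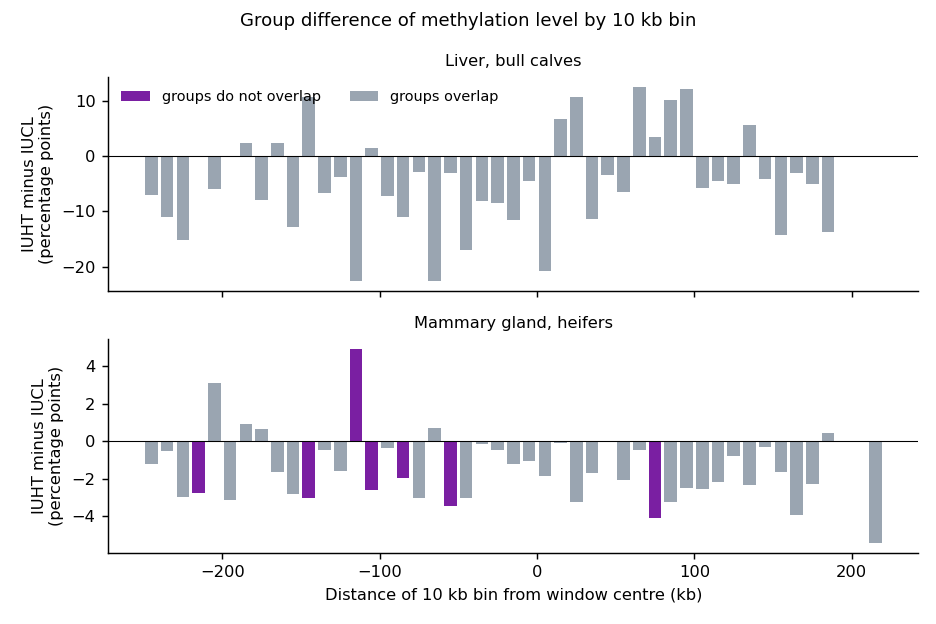
Difference in mean methylation level between in utero heat stressed and cooled animals (percentage points) in each 10 kb bin with at least 100 calls in every animal of the tissue, by distance from the window centre in kb. Purple bars mark bins where the groups do not overlap, 0 of 42 in liver and 7 of 45 in the mammary gland. The vertical scales differ between tissues.

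Levels along the window were not uniform. In liver the bin from 28880000 had the highest mean level (83.3 ± 10.6%, SD, n = 9) and the bin from 28920000 the lowest (48.5 ± 16.3%). In the mammary gland the highest was the bin from 28830000 (79.8 ± 2.87%, SD, n = 6) and the lowest the sparsely covered bin from 28960000 (45.9 ± 6.56%). Over the 42 bins that passed in both tissues, the bin means of liver and mammary gland had r = 0.218, and the median SD between animals was 11.9 points in calves and 2.44 points in heifers. At single positions with more than 10 reads in all 15 animals, of which the window held 84 of 481, r across positions was 0.929 (0.909 over the 397 elsewhere). Single positions range more widely in level than bin means, so the r of bins and of positions are not compared. The median SD at these 84 positions was 20.6 points between calves and 4.94 points between heifers. The deepest of them were as follows. Position 28591528 was at 97.8 ± 3.19% in liver and 94.5 ± 2.11% in mammary gland, and 28591532, 4 bases on, was at 13.3 ± 17.0% and 11.4 ± 6.07%. Position 28827574 was at 65.0 ± 23.4% in liver, from 24.8 to 98.0% between calves, and at 74.2 ± 1.91% in the mammary gland.

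The window was less methylated than the rest of chromosome 27 in liver. Outside 1 kb of the chosen positions it had 69.9 ± 4.34% against 79.0 ± 1.12% (SD, n = 9), a mean difference of −9.04 points with the window lower in 9 of 9 calves. By group the difference was −12.2 ± 1.24 points in IUHT-B and −6.53 ± 4.36 points in IUCL-B (SD, n = 4 and 5). Against the 500 kb on either side the liver difference was −4.18 points. These liver values are given with no test, since levels in the same calves chose the window. In the mammary gland the window had 67.5 ± 2.10% against 74.5 ± 1.57%, a mean difference of −6.94 points with the window lower in 6 of 6 heifers (exact permutation test over signs, p = 0.03125, adjusted 0.0781). That mammary direction depended on what it was compared with: the window was 1.18 points higher than the 500 kb on either side pooled, but 1.28 points lower (−1.28) than the 500 kb before it alone, and 5.41 points higher than the rest of the chromosome among positions with more than 10 reads (exact permutation p = 0.03125 for each). The 500 kb after the window was at 57.4 ± 4.08% on 2653 to 3377 calls per heifer, and the 500 kb before it at 68.8 ± 1.69% on 9162 to 13135 calls. Between tissues, the pooled window level was 2.45 points higher in liver (70.0 ± 4.33% against 67.6 ± 2.07%). These levels include the chosen positions and the liver values that chose the window, so they are given with no test. The sign of the difference between tissues also depended on the measure. It was 4.77 points by the mean over positions and −5.46 points with calls pooled over positions read more than 10 times in every animal. With those 84 positions weighted alike, the means were 69.7% in liver and 66.4% in the mammary gland, and liver was higher at 51.

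Reads at one liver position mostly shared one state elsewhere, and did so less in the window. When 11 reads were drawn from a position, the chance that all were methylated or all unmethylated averaged 61.9 ± 5.29% in the window and 95.2 ± 2.60% on the rest of chromosome 27 (SD, n = 9). No calf's window value (51.9 to 69.4%) reached a value of the rest (89.2 to 97.0%). In heifers the percentages were 15.0 ± 0.973 and 22.2 ± 1.33 (SD, n = 6). Positions with more than 10 reads and a level between 10 and 90% made up 29.05 ± 5.76% in the liver window and 3.52 ± 2.20% on the rest of the chromosome, and 76.8 ± 1.83% and 66.8 ± 1.64% in the mammary gland.

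Single positions were then compared between groups by logistic regression of methylated and unmethylated counts, wherever each animal of the tissue had over 10 reads. A differentially methylated cytosine (DMC) had a pooled difference of at least 15 points and a Benjamini-Hochberg q of at most 0.2. Of the 900 liver positions tested in the genome, 133 (14.8%) lay in the window, against 8 in the 500 kb before it and 0 in the 500 kb after it. In liver 61 of the 133 (45.9%) were DMCs, 25 hypermethylated and 36 hypomethylated in IUHT-B, where 33.1% of all tested liver positions were DMCs (14.2% hypermethylated and 18.9% hypomethylated). The 25 include 28621602 and 28867278, the neighbours of the chosen positions described above. Nothing is read from this count, since the contrast chose the window. DMCs made up 15 of 33 tested liver positions (45.5%) in the chromosome 7 bin and 27 of 79 (34.2%) in the chromosome 8 bin. In the window the mean difference was lower in IUHT-B at 65 positions, higher at 67 and equal at 1, with a median of 0.396 points. The variance between calves was 35.4 times the binomial variance at the median window position (31.3 times outside). With that overdispersion in an F test 13 DMCs were left (4 hypermethylated and 9 hypomethylated), 9.77% of the window positions against 6.33% of all. By edgeR's quasi-likelihood test 0 were called (0.222% of all), with 15 of 133 positions (11.3%) at an unadjusted p under 0.05 against 9.11% of all tested positions.

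The liver DMCs with the largest difference of means were taken in each direction. Lower in IUHT-B, beside the chosen positions, position 28788336 was at 95.7 to 100% in all IUCL-B calves and at 67.9%, 25%, 99.3% and 7.47% in IUHT-B calves 2 to 5, so that IUHT-B calf 4 lay with the cooled calves. The next 3 by size were also lower in IUHT-B, with differences of −43.5 points at 28862761, −43.01 at 28922617 and −41.96 at 28591541, larger than any higher DMC. Higher in IUHT-B, 28835032 had 30.1 ± 12.9% in IUCL-B and 69.6 ± 21.4% in IUHT-B, 28606942 had 22.2 ± 18.5% and 50.8 ± 20.5%, and 28699907 had 43.9 ± 12.3% and 72.1 ± 19.3%, all with overlapping groups. Of the 133 positions, 5 (3.76%) were DMCs whose groups did not overlap, 3 lower and 2 higher in IUHT-B, against 2.44% of all tested liver positions. Nothing is read from this either. For liver positions at most 44 bases apart, the length that 1 read can cover, the difference had the same sign in 53 of 101 pairs (52.5%). The r between these differences was −0.00446 over 103 pairs. These pairs include the chosen positions with their neighbours, and nothing is read from them. At 45 to 1000 bases the sign was the same in 30 of 45 pairs (66.7%, r = 0.274 over 46 pairs), and at over 1 and up to 10 kb in 209 of 406 (51.5%).

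In the mammary gland, whose contrast did not choose the window, 1175 of 18486 tested positions (6.36%) lay in the window. There were 18 DMCs among them (1.53%), where 1.54% of all tested mammary positions were DMCs, and by direction 3 were hypermethylated (0.255%, against 0.427% of all tested positions) and 15 hypomethylated (1.28%, against 1.11%). The share in the window was thus near that of the genome. DMCs whose groups did not overlap numbered 9 in the window (0.766%), against 0.93% of all tested mammary positions. The level was lower in IUHT-H at 697 positions, higher at 471 and equal at 7, with a median of −1.13 points in the window and −0.694 outside. The largest differences without overlap were at 28688564 (83.5 ± 6.70% in IUCL-H and 59.9 ± 7.75% in IUHT-H, q = 0.0287), 28722343 (72.4 ± 4.69% and 52.7 ± 6.64%, q = 0.169) and 28680169 (37.1 ± 9.17% and 18.8 ± 12.1%, q = 0.0611), which were lower in IUHT-H. Those higher in IUHT-H were 28569093 (17.5 ± 4.72% and 40.6 ± 9.63%, q = 0.0782) and 28628193 (67.2 ± 8.60% and 86.9 ± 4.77%, q = 0.197), all with n = 3 a group in the logistic regression across all tested positions. No mammary DMC lay within 1 kb of a chosen position, but few positions were tested there. Around the first chosen position only 28620934 and 28620967 were tested, and the chosen position itself was not. At the share of 1.54% over all tested positions, so few would most likely hold no DMC, and nothing is read from this absence. With an overdispersion term, and by edgeR's quasi-likelihood test, 0 window positions and 0 of the 18486 tested positions were called. In edgeR 51 of the 1175 (4.34%) had an unadjusted p under 0.05, against 4.495% of all tested positions. Without IUCL-H heifer 1 the count was 32 in place of 18, which was 2.67% of the window positions then tested, against 2.397% of all. Over 1356 pairs of window positions at most 44 bases apart, 53.3% of mammary differences had the same sign.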

How the data were processed

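DNA methylation was measured by RRBS (MspI and TaqαI digestion, fragments under 300 bases, 50-base single reads) in 9 livers and 6 mammary glands. Each deposited file lists positions with the percent methylated and the counts of methylated and unmethylated reads, which the authors made with Trim Galore and Bismark against UMD3.1.1, ignoring the first 6 bases of each read. The submitters' processing notes name FastQC, Trim Galore 0.4.4, Bismark 0.17.0 and UMD3.1. The deposited percent equalled the counts in every file. A pooled level is methylated calls over all calls, and the mean of the percent column weights positions alike. The depth of each position was its deposited read count. Reads were not matched by molecule, so intervals cover counting error only. Groups came from the treatment and animal labels.

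The window, its positions and the lists were chosen with earlier results of these data known. The 23-base spacing, the levels of pairs by distance, the deep run and the means over positions without the chosen one were looked at after the data were seen. Positions named in the text were the 2 chosen positions, those within 1 kb with more than 10 reads in all 9 calves, the 3 window DMCs in either direction with the largest difference of means (without overlap in the mammary gland, where 2 hypermethylated ones qualified), the deepest 3 positions tested in all 15 animals, and in each tissue the 10 kb bins with the highest and the lowest level and the 3 with the largest difference. Positions given beyond these were chosen after their values were seen. Bins needed at least 100 calls in every animal of the tissue.

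Exact permutation tests were two-sided, over groups or over signs within animals, with 10 tests adjusted together. Of these, the liver share of calls, the liver depth, the liver window level against the rest of the chromosome and the difference between tissues are printed as a description. They stayed among the 10, and the adjusted p of the mammary tests over signs would be higher without them. The site test was checked on simulated counts that varied between animals of a group by counting error alone. That check does not cover the overdispersion given above. Alternatives were read minimums, cut-offs, models, distances, comparison regions and left-out animals. Python 3.11.15, numpy 2.4.6, scipy 1.17.1, pandas 2.3.3, R 4.3.3 and edgeR 4.0.16 were used.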

Additional observations from a re-analysis of the deposited data

Results flagged for a closer look

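Among 42 sets of calf values by group, 2 held a calf whose gap to the nearest other calf took more of the group's range than the 95% limit of Dixon's test, which chance gives in about 1 of 20 groups. At position 28867246, IUHT-B calf 4 was at 38.0%, against 0.0834 to 2.65% in the other 3 calves of its group (648 reads). Within 1 kb of that position, IUHT-B calf 2 had a pooled level of 43.0%, against 73.9 to 77.3% in the others. Both concern the second chosen position, and the cause was not tested.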

How the results depend on the processing

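Over all results, 151 alternative values kept their direction and side of the threshold (or stayed within the spread or within 1.5 times a count), 12 reversed, 12 moved, 12 became weaker and 2 became stronger, and the cause was not tested beyond what each setting removes. This tally includes liver differences in the contrast that chose the window. It also includes mammary group tests whose smallest p was 0.1, which could not cross 0.05. No stability is read from either. The liver window difference of −5.76 points ranged from −7.19 to −4.62 with 1 calf left out, and was −2.49 by the mean over positions and −3.24 without IUCL-B calves 4 and 5. Its sign held in every alternative run, which is not read as stability since the same contrast and calves chose the window. Liver minus mammary was 4.77 points by the mean over positions. It reversed with calls pooled over positions read more than 10 times in every animal (−5.46 points). It was 0.658 points without IUCL-B calves 4 and 5, an alternative chosen after seeing the data. The mammary window lay above both flanks pooled (1.18 points), though not above the deeper flank before it (−1.28 points, chosen after seeing the data), and above the rest of the chromosome among positions with more than 10 reads (5.41 points), and differed from it by −7.64 to −6.29 points with 1 heifer left out, where 5 heifers allow no p under 0.0625. The mammary log2 ratio of reads ranged from 3.31 to 3.36 likewise. The mammary difference within 1 kb of the first position reversed within 500 bases (10.3 points) and by the mean over positions (5.80 points, or 4.65 without the position itself), and ranged from −2.51 to 3.22 points with 1 heifer left out. At the second position the mean over positions gave −12.3 points in place of −0.784, and −2.68 over the other positions with more than 10 reads. The liver share of calls differed by 0.189 to 0.375 points with 1 calf left out. The mammary share reversed as a share of listed positions (−0.000556 points) and ranged from −0.0130 to 0.0894 points with 1 heifer left out.

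The liver DMC count of 61 was 121 of 269 tested positions at 5 or more reads (44.98%, against 36.8% of all), 24 of 66 at 20 or more (36.4% against 27.8%), 31 of 133 at 25 points (23.3% against 17.4%), 13 with overdispersion (9.77% against 6.33%) and 0 by edgeR (0.222% of all), and 55 of 133 (41.4% against 33.1%) to 89 of 185 (48.1% against 34.7%) with 1 calf left out. The mammary count of 18 was 6 of 710 at 20 or more reads (0.845% against 1.204% of all), 2 at 25 points (0.170% against 0.184%), 4 at q of 0.05 (0.340% against 0.563%), 0 with overdispersion and 0 by edgeR (0 of all under both) and 0 when thinned to 11 reads (0.0325% of all). With 1 heifer left out it ranged from 16 of 1183 (1.35% against 1.96% of all) to 32 of 1198 (2.67% against 2.397%). Bull calves of both groups carry the numbers 2 to 5. Deviations from the group means correlated by −0.0564 to 0.107 within a number and by −0.0892 to 0.0576 between numbers. The values within numbers 4 (0.107) and 3 (0.0669) were the highest of all. All were small, and the numbers were not taken as pairs, but these values do not settle whether the calves were paired. The fit with the number as a replicate block leaves out IUCL-B calf 1. It gave a window difference of −7.19 points and a share difference of 0.270 points, the same values as in those calves without the block. The liver DMC count was 54 of 133 with the block (40.6% against 32.4% of all). It was 55 of 133 without the block (41.4% against 33.1%).

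The 9 calves had as few as 11 reads at a tested position, and the last bins of the window were too thinly covered in liver to compare.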
